A study of Mus musculus with 95 samples.

Results

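PCGF2 binding was compared between wild-type E14 mouse embryonic stem cells and 3 knockout lines that still carry the Pcgf2 gene but lack other members of its family. The peak lists used were those of ChIP with a Pcgf2 antibody in wild-type, Pcgf1-/-, Pcgf3/5-/- and Pcgf6-/- cells. The list of the same antibody in Pcgf2/4-/- cells, which lack PCGF2 and its closest relative PCGF4 (the product of Bmi1), served as background to remove. The 5 lists held 20688 peaks, from 5 of the 95 samples of the series, and 17090 peaks of the 4 compared lines remained after removal.

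All lines were E14 cells or derivatives of them, kept without feeder cells on gelatin, per the labels' protocols, with serum, LIF and small-molecule inhibitors against the kinases MEK1/2 and GSK3β. Knockouts were made with Cas9 and puromycin selection, and cells lacking several genes were derived by editing a single-knockout clone again. The number of clones behind each line is not given in the sources used here. Each antibody had 1 peak list per line, so the lists have no replicate check and no test was made between lines. Shares carry 95% Wilson intervals, which cover counting error only, and the sequencing depth behind each list is unknown. In the lists of wild-type, Pcgf3/5-/- and Pcgf2/4-/- cells peak values have 2 decimals and in those of Pcgf1-/- and Pcgf6-/- cells 5, so this difference in file format cannot be told apart from the comparison of wild-type with Pcgf1-/- or Pcgf6-/- cells.

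Polycomb repressive complex 1 is built around RING1A or RING1B, which attach ubiquitin to histone H2A, and 1 of 6 PCGF proteins. PCGF2 and PCGF4 mark the canonical complexes, whose CBX subunits bind trimethylated lysine 27 of histone H3 (H3K27me3), the mark made by Polycomb repressive complex 2 with its core subunit SUZ12. PCGF1, PCGF3, PCGF5 and PCGF6 sit in variant complexes. Those with PCGF1 contain KDM2B, which binds unmethylated CpG dinucleotides, and those with PCGF6 contain MGA, MAX and E2F6, which bind E-box and E2F motifs. In embryonic stem cells canonical complexes are known for covering CpG islands of silent developmental genes.

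The following sequences show 120 bases around the summit of the strongest promoter peak of each main class, because the classes differed in CpG content. Classes are peaks called in all 4 lines and peaks called in a single line, a promoter peak lies within 2.5 kb of an annotated start of a protein-coding gene, and strength is the authors' −log10 q value. They were read from NCBIM37 (mm9), plus strand, with CpG dinucleotides in capitals.
Nr5a1, all 4 lines, chr2:38566199-38566318, exon: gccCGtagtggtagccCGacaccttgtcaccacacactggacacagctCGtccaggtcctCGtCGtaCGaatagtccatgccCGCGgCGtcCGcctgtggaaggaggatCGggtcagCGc
Gm9947, wild-type only, chr1:14745641-14745760, exon: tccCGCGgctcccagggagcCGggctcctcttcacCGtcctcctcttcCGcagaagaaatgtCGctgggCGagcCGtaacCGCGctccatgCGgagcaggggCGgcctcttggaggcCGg
B3galnt1, Pcgf1-/- only, chr3:69402223-69402342, intron: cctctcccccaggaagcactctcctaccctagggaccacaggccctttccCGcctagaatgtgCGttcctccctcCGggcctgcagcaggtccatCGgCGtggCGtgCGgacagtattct
Pdik1l, Pcgf3/5-/- only, chr4:133843186-133843305, intron: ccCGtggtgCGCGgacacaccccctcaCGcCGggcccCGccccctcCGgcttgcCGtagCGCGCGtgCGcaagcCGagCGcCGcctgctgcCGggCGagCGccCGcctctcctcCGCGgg
Gata4, Pcgf6-/- only, chr14:63887529-63887648, intron: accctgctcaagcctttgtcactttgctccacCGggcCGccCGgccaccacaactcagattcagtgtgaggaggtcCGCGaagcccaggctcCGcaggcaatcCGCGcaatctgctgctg

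The printed windows held 12 CpG at Nr5a1, 13 at Gm9947, 7 at B3galnt1, 21 at Pdik1l and 8 at Gata4. Across whole classes, in 300-base windows at the summit, peaks called in all 4 lines had a median GC content of 65.5% and a median ratio of observed to expected CpG of 0.78. Peaks called only in Pcgf6-/- cells had 57.0% GC and a ratio of 0.53, close to the 57.3% and 0.52 of all 69963 start windows of protein-coding genes. Peaks called only in wild-type cells lay between, with 61.3% GC and a ratio of 0.74, as did those called only in Pcgf1-/- cells, with 62.5% and 0.73. The 28 peaks called only in Pcgf3/5-/- cells had a GC content above that of the common peaks, 69.5%, and a ratio of 0.76.

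Most wild-type PCGF2 sites were called again in each knockout, and the largest difference was an excess of peaks in Pcgf6-/- cells. The wild-type list held 4472 peaks, of which 636 overlapped the background list and 3836 remained. Pcgf1-/- cells had 3582 peaks after removal of 635, Pcgf3/5-/- cells 2847 after removal of 363, and Pcgf6-/- cells 6825 after removal of 914. Of the 3836 wild-type peaks, 80.1% (95% Wilson interval 78.8 to 81.4) were called in Pcgf1-/- cells, 68.1% (66.7 to 69.6) in Pcgf3/5-/- cells and 95.7% (95.01 to 96.3) in Pcgf6-/- cells. In the other direction, 81.1% of the Pcgf1-/- peaks, 89.3% of the Pcgf3/5-/- peaks and 42.0% of the Pcgf6-/- peaks were called in wild-type cells.

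A common core of 2396 wild-type peaks (62.5%, 60.9 to 64.0) was called in all 4 lines. Peaks called in a single line numbered 83 for wild-type, 118 for Pcgf1-/-, 28 for Pcgf3/5-/- and 3537 for Pcgf6-/- cells. The last number is 51.8% (50.6 to 53.01) of the Pcgf6-/- list, against 2.16% of the wild-type list. After merging overlapping peaks of the 4 lists into 7149 regions, 3537 regions were called only in Pcgf6-/- cells and 1870 in all 4 lines. When each list was cut to its 2847 strongest peaks, the length of the shortest list, the peaks called only in Pcgf6-/- cells numbered 588, those only in Pcgf3/5-/- cells 149, and the share of wild-type peaks called was 83.4% in Pcgf1-/-, 80.8% in Pcgf3/5-/- and 87.8% in Pcgf6-/- cells.

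**Figure D1:**
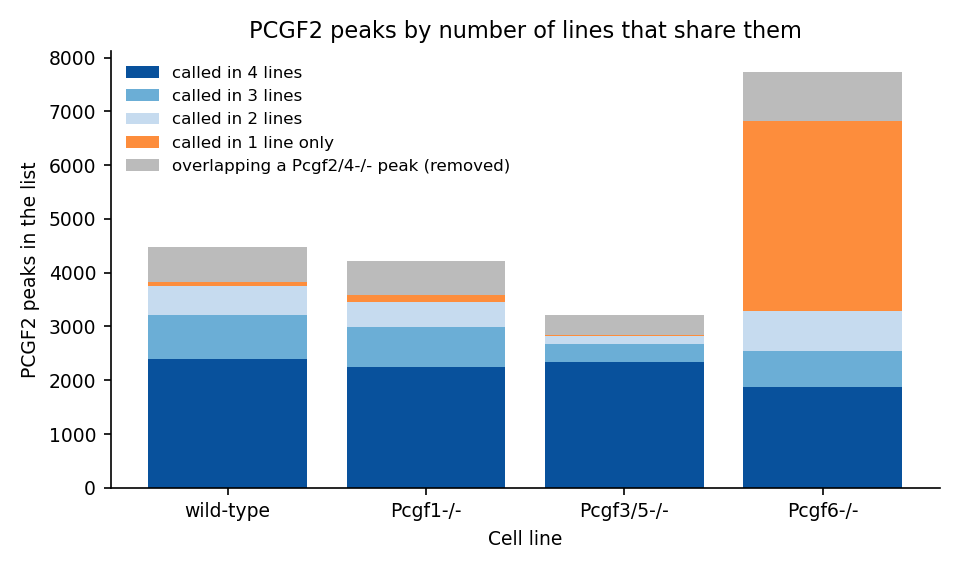
Number of PCGF2 peaks in each line (y axis) divided by how many of the 4 lines called the site, with the peaks removed as background in grey. The single-line part holds 3537 peaks in Pcgf6-/- cells and at most 118 in the other lines.

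The background list itself moved with the lists. Its 1050 peaks, found in cells without PCGF2 and PCGF4, were called again at a rate of 61.0% in wild-type, 60.6% in Pcgf1-/-, 34.7% in Pcgf3/5-/- and 87.9% in Pcgf6-/- cells. The intervals of wild-type and Pcgf1-/- cells overlap (58.0 to 63.9 and 57.6 to 63.5), and the lowest and highest shares are those of the shortest and longest lists. Background peaks were narrow, with a median width of 384 bp, 76.5% overlapped H3K4me3 (a mark of promoters) in the same line, and 8.29% overlapped SUZ12. The part of how readily peaks were called in the differences between lines was not tested.

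Whether a wild-type peak was called again followed its strength in wild-type cells. Of the strongest of 5 equal groups of wild-type peaks, with −log10 q of at least 42.7, 99.6% were called in Pcgf1-/-, 99.5% in Pcgf3/5-/- and all 767 in Pcgf6-/- cells. Of the weakest group, up to 10.1, 49.0% (45.4 to 52.5) were called in Pcgf1-/-, 29.7% (26.6 to 33.0) in Pcgf3/5-/- and 88.5% (86.1 to 90.6) in Pcgf6-/- cells. Wild-type peaks not called in Pcgf3/5-/- cells had a median −log10 q of 10.7 and a median width of 424 bp, against 26.6 and 1129 bp for those called.

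**Figure D2:**
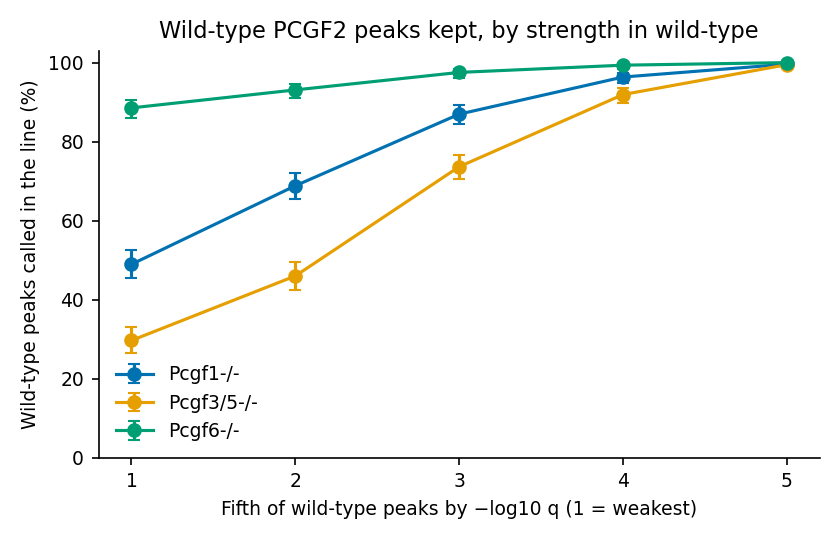
Share of wild-type PCGF2 peaks called in each knockout line (y axis, percent, with 95% Wilson intervals) by 5 equal groups of −log10 q in wild-type cells (x axis, 1 is weakest). In all 3 lines the share is lowest in the weakest group, where it is 29.7% in Pcgf3/5-/- and 88.5% in Pcgf6-/- cells.

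The wild-type sites missing from each line were compared for the variant subunit bound there in wild-type cells. In Pcgf6-/- cells 165 wild-type peaks were not called, and 32.7% (26.0 to 40.2) of them overlapped a wild-type PCGF6 peak, against 9.89% (8.96 to 10.9) of the 3671 that were called. The same contrast held within the weaker 40% of wild-type peaks, with 30.1% (23.2 to 38.0) of 143 against 4.46% (3.50 to 5.67) of 1411. The motif CACGTG, an E-box searched on both strands of the 300-base windows, was present in 12.1% (7.98 to 17.98) of the sites not called and 6.86% (6.09 to 7.73) of those called. Within the weaker 40% the values were 11.9% (7.56 to 18.2) and 6.52% (5.35 to 7.93), with overlapping intervals, and of all start windows 6.76% held the motif. A motif match is only a description.

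No such contrast was seen for PCGF1 in Pcgf1-/- cells. Of the 762 wild-type peaks not called there, 8.27% (6.52 to 10.4) overlapped a wild-type PCGF1 peak, fewer than the 15.4% (14.2 to 16.7) of those called. Within the weaker 40% the values were 5.05% and 4.24%, with overlapping intervals. The wild-type PCGF1 list held 736 peaks, against 1868 for PCGF6, and overlapped 537 of the 3836 wild-type PCGF2 peaks. PCGF1 lists of Pcgf6-/-, Pcgf2/4-/- and Pcgf3/5-/- cells overlapped 1793, 1350 and 163 of these 3836 peaks. The part of PCGF1 list length in the missing contrast was not tested, so no difference between PCGF1 and PCGF6 is read from it. PCGF3 peaks were at 0.573% (0.278 to 1.18) of the 1222 wild-type sites not called in Pcgf3/5-/- cells and at 0.306% (0.155 to 0.603) of those called, and those intervals overlap. Among the 165 wild-type peaks not called in Pcgf6-/- cells, 8 (4.85%, 2.48 to 9.28) overlapped one of the wild-type PCGF3 peaks, against 7 of the 3671 called.

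PCGF2 peaks lay mostly at promoters, and those added in Pcgf6-/- cells less often so. The promoter share was 76.8% (75.4 to 78.1) in wild-type, 77.1% (75.7 to 78.4) in Pcgf1-/-, 78.1% (76.5 to 79.6) in Pcgf3/5-/- and 67.4% (66.3 to 68.5) in Pcgf6-/- cells. Among the 2396 peaks called in all 4 lines it was 79.3%, with 8.68% inside gene bodies away from promoters and 12.1% outside genes. Peaks called only in Pcgf6-/- cells were at promoters in 55.7% (54.1 to 57.4), in gene bodies in 15.6% and outside genes in 28.7%. Their median distance to the nearest start was 1860 bp, against 605 bp for wild-type peaks called in all lines. With lists of equal length the promoter share of Pcgf6-/- peaks was 78.2%, against 78.9% for wild-type peaks.

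SUZ12 lay at nearly every site where PCGF2 was called in all 4 lines. In the same line, SUZ12 overlapped 94.0% (93.2 to 94.7) of PCGF2 peaks in wild-type, 93.4% (92.6 to 94.2) in Pcgf1-/-, 99.3% (98.9 to 99.5) in Pcgf3/5-/- and 69.9% (68.8 to 71.0) in Pcgf6-/- cells. Cut to equal length, the Pcgf6-/- list reached 97.5% and the wild-type list 95.6%, so at equal length the order of these lines was the other way round. Wild-type sites called in all 4 lines carried SUZ12 in 99.8%, and the SUZ12 lists of the knockouts still covered 99.8% of these sites in Pcgf1-/-, 99.9% in Pcgf3/5-/- and 97.2% in Pcgf6-/- cells. RING1B, a catalytic subunit of complex 1, overlapped 2395 of the 2396 in each of the wild-type, Pcgf1-/- and Pcgf3/5-/- lines and 97.4% in Pcgf6-/- cells. The SUZ12 lists were of like length, from 5624 to 6704 peaks over the 4 lines.

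H3K27me3 at PCGF2 peaks differed more between lines. It overlapped 66.1% (64.6 to 67.6) of the peaks in wild-type, 89.3% (88.2 to 90.3) in Pcgf1-/-, 94.2% (93.3 to 95.04) in Pcgf3/5-/- and 50.9% (49.7 to 52.1) in Pcgf6-/- cells. At the fixed 2396 common sites the values were 78.1% (76.4 to 79.7), 96.2% (95.4 to 96.9), 96.5% (95.7 to 97.2) and 67.7% (65.8 to 69.5), in the same order of lines. The H3K27me3 lists covered 6.33 Mb in wild-type, 19.9 Mb in Pcgf1-/-, 17.6 Mb in Pcgf3/5-/- and 8.25 Mb in Pcgf6-/- cells, so the 2 highest shares are those of the 2 longest lists, whereas the Pcgf6-/- list is longer than the wild-type list and its share lower. The part of list length was not tested. Cut to the 2847 strongest PCGF2 peaks, the share was 73.2% in wild-type and 76.4% in Pcgf6-/- cells, which turns the order of these lines. With H3K27me3 peaks of −log10 q of at least 10 it was 38.3% in wild-type and 27.1% in Pcgf6-/- cells, and where 50% of the PCGF2 peak had to be covered it was 27.9% in Pcgf6-/- cells. Lists of the H2A ubiquitin mark ranged from 1.12 Mb to 78.0 Mb, so overlaps with it are not compared here. H3K36me3, a mark of transcribed gene bodies, overlapped 0.167% of the common sites in wild-type cells.

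Peaks found only in Pcgf6-/- cells fell into a part with SUZ12 and a part without. SUZ12 of the same line overlapped 1861 of the 3537 (52.6%, 51.0 to 54.3), and 38.2% of the 3537 already overlapped a SUZ12 peak in wild-type cells. The 1861 peaks with SUZ12 were wider (median 958 bp), with 64.0% at promoters, 60.7% median GC and a CpG ratio of 0.60. The 1676 without SUZ12 had a median width of 376 bp, 46.5% lay at promoters, and GC and CpG ratio were 52.3% and 0.40. RING1B overlapped 69.4% of the first part and 16.5% of the second. PCGF6 had been called in wild-type cells at 2.01% (1.60 to 2.52) of the 3537 peaks, against 13.1% (11.8 to 14.6) of the common sites.

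**Figure D3:**
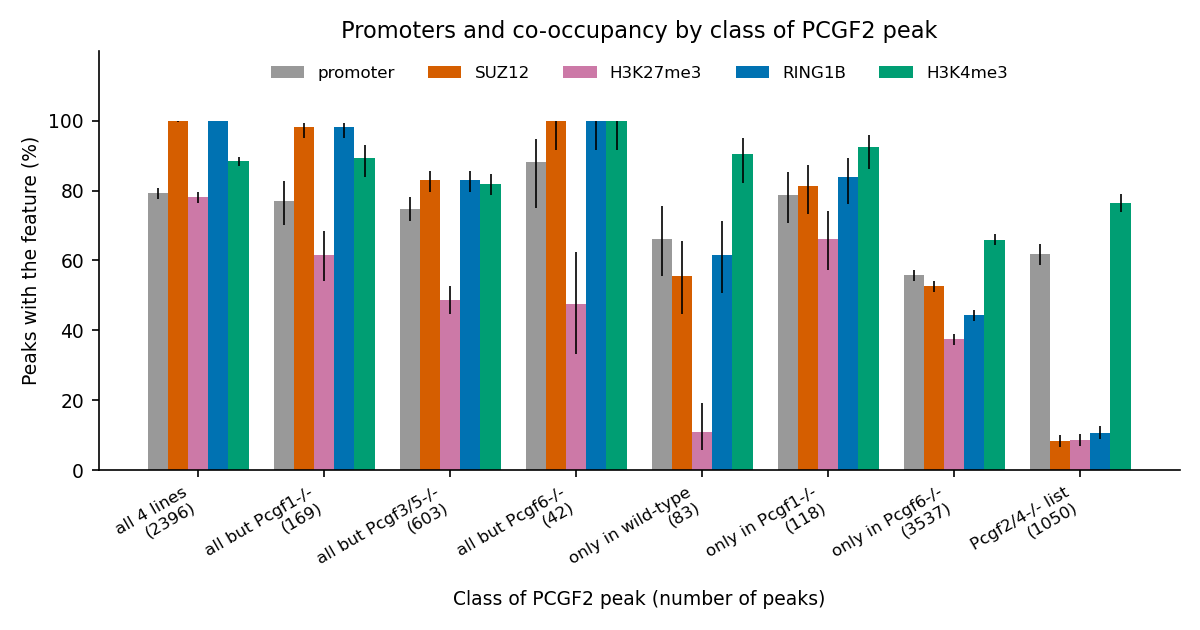
Share of PCGF2 peaks (y axis, percent, with 95% Wilson intervals) at promoters and overlapping SUZ12, H3K27me3, RING1B or H3K4me3 in the cells whose list defines the class, which is wild-type for the shared classes. The number of peaks stands under each class. SUZ12 is at 99.8% of peaks called in all 4 lines, 52.6% of those only in Pcgf6-/- cells and 8.29% of the Pcgf2/4-/- list.

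Small single-line classes had their own mixtures. The 83 wild-type peaks called nowhere else overlapped SUZ12 in 55.4% (44.7 to 65.6), H3K4me3 in 90.4% and wild-type PCGF6 in 25.3% (17.2 to 35.6). The 118 peaks called only in Pcgf1-/- cells overlapped SUZ12 in 81.4% and PCGF6 of the same line in 49.2% (40.3 to 58.1). PCGF6 lists held 1868 peaks in wild-type and 5528 in Pcgf1-/- cells, and the same 118 sites overlapped wild-type PCGF6 in 27.1%. At the 42 wild-type sites called in every line but Pcgf6-/-, SUZ12, RING1B and H3K4me3 were each present at all 42, and PCGF6 at 20 (47.6%, 33.4 to 62.3).

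PCGF2 lists of other lines in the series took no part in defining the classes. In Ring1a-/-_Ring1bfl cells, which lack Ring1a and carry a floxed Ring1b, 3904 PCGF2 peaks were called, and they overlapped 89.7% (88.4 to 90.8) of the common sites and 9.61% (8.69 to 10.6) of the sites only in Pcgf6-/- cells. In Ring1a/b-/- cells 662 peaks were called and overlapped 1 of the 2396 common sites. Of the wild-type peaks, 0.521% were called in Ring1a/b-/- cells. In Ezh1/2-/- cells, which lack both catalytic subunits of complex 2, 163 peaks were called and overlapped 0 of the 3836 wild-type peaks (upper bound of the interval 0.1%). The Ring1a/b-/- and Ezh1/2-/- lists shared 67.7% and 95.7% of their peaks with the background list. Wild-type peaks at background sites had been removed, which lowers the overlap with the Ring1a/b-/- list. The overlap with the Ezh1/2-/- list was nearly fixed by that removal. Of the complete lists, 59.1% of the Ring1a/b-/- peaks and 93.9% of the Ezh1/2-/- peaks were called in wild-type cells.

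The strongest promoter peaks called in all 4 lines were those of Nr5a1, a steroidogenic nuclear receptor, Tnxb, an extracellular matrix protein, Zic1, a neural zinc finger factor, Tal1, a blood transcription factor, and Sema5b, a guidance molecule. At Nr5a1 (chr2:38565356-38567615, 449 bp from the start to the summit) the −log10 q was 151.3 in wild-type, 172.0 in Pcgf1-/-, 147.9 in Pcgf3/5-/- and 251.3 in Pcgf6-/- cells. The peak there was 2260, 2266, 2875 and 4737 bp wide in the same order. All 5 peaks overlapped SUZ12 and RING1B in wild-type cells, and all but that of Nr5a1 overlapped H3K27me3.

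The leading single-line promoter peaks had higher −log10 q values in the Pcgf6-/- list than in the other lists. These values describe peaks within their own list, so they do not compare binding strength between lines. Peaks called in all 4 lines also had a higher median in Pcgf6-/- than in wild-type cells, 94.7 against 29.2. Leading peaks of wild-type cells, at Gm9947, the kinesin gene Kif2c, the channel gene Trpc6 and the GTPase gene Mras, had −log10 q between 12.9 and 14.8. In Pcgf1-/- cells the top 5, at B3galnt1, Eepd1, Plod2, Fzd6 and Zfp422, lay between 21.0 and 25.7. In Pcgf3/5-/- cells Pdik1l, Igf2bp3, Lin28b, Socs2 and Lrig3 lay between 10.0 and 11.8. In Pcgf6-/- cells the developmental transcription factor genes Gata4, Tcfap2b and Zfhx3 and the adaptor gene Shb lay between 105.4 and 137.0, and each of these sites overlapped a SUZ12 peak in wild-type cells. The Gata4 promoter had a further, weaker wild-type peak (25.2) beside this site, so the gene counts as bound in wild-type cells.

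Promoter sites called in every line but 1 were led by the following genes. Those missing in Pcgf1-/- cells were led by Igsf21 (−log10 q of 59.7 in wild-type, 25.1 in Pcgf3/5-/- and 163.0 in Pcgf6-/- cells) and the homeobox gene Tlx2 (58.3, 59.3 and 74.8). In Pcgf3/5-/- cells the list of missing sites was led by Fyco1, Cdh4, Rab7l1, Pafah2 and Ascl2. Of these, the peaks at Fyco1, Rab7l1 and Pafah2 were 348 to 435 bp wide, lay 65 to 75 bp from a start and overlapped neither SUZ12 nor RING1B, whereas those at the cadherin gene Cdh4 and the trophoblast factor gene Ascl2 overlapped both. The sites missing in Pcgf6-/- cells were led by Ptprd, Vopp1, Vash1, Golim4 and Gm10190, with −log10 q of 24.4 to 36.8 in wild-type cells. Of these, Golim4 and Gm10190 overlapped wild-type PCGF6.

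PCGF2 peaks covered longer stretches in Pcgf6-/- cells at the sites shared by all lines. Over the 1870 shared regions the median covered length was 1407 bp in wild-type, 1518 bp in Pcgf1-/-, 1226 bp in Pcgf3/5-/- and 2686 bp in Pcgf6-/- cells. Pcgf6-/- peaks were wider than wild-type peaks in 97.5% of these regions, with a median ratio of 1.83, whereas Pcgf3/5-/- peaks were wider in 34.0%. The 5 widest wild-type peaks of this class lay at Msx1, Gata6, Skor1, Isl2 and Zfp503, all genes of developmental regulators. Widths there were 7171 to 7753 bp in wild-type cells and 9412 to 13853 bp in Pcgf6-/- cells. Peaks removed as background were also wider in Pcgf6-/- than in wild-type cells, with median widths of 491 and 360 bp. Their median −log10 q was 31.7 and 19.3. The part of how readily peaks were called in the greater widths was not tested.

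The Hox clusters, textbook Polycomb targets that specify position along the body axis, were covered further by peaks in Pcgf6-/- cells than in the other lines. Peaks covered 35.01% of the Hoxa cluster (chr6:52100366-52215874) in wild-type, 41.9% in Pcgf1-/-, 30.4% in Pcgf3/5-/- and 89.5% in Pcgf6-/- cells. Coverage of the Hoxc cluster (chr15:102746534-102872274) was 13.7%, 15.9%, 10.2% and 71.4%, and the Pcgf6-/- list held a single peak of 46112 bp there. In the Hoxb and Hoxd clusters the Pcgf6-/- values were 56.0% and 82.5%, against 12.2% and 31.2% in wild-type cells. Here too, the part of how readily peaks were called was not tested.

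**Figure D4:**
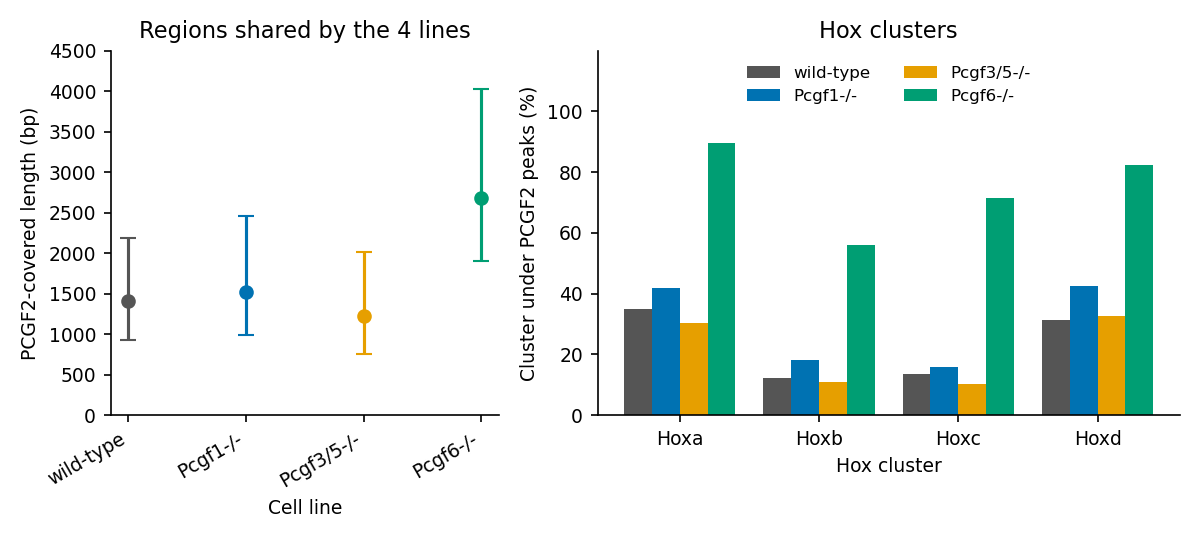
Left, length in bp covered by PCGF2 peaks in the 1870 regions shared by the 4 lines, as median (point) and quartiles (bars). Right, percent of each Hox cluster covered by PCGF2 peaks in each line, with Pcgf6-/- cells highest in all 4 clusters, from 56.0% to 89.5%.

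By gene, a PCGF2 peak lay at the promoter of 2342 of 22367 protein-coding genes in wild-type cells (10.5%), 2196 in Pcgf1-/- (9.82%), 1797 in Pcgf3/5-/- (8.03%) and 3728 in Pcgf6-/- cells (16.7%). Of 39 Hox genes, 35 were bound in wild-type, 32 in Pcgf1-/-, 35 in Pcgf3/5-/- and 39 in Pcgf6-/- cells. Hox genes added in Pcgf6-/- cells included Hoxb13, Hoxc4 and Hoxc13, and the 3 that dropped out in Pcgf1-/- cells were Hoxb1, Hoxb9 and Hoxc12, with −log10 q of 7.56, 10.4 and 19.8 in wild-type cells. Other developmental transcription factors were bound at 37 of 39 genes in wild-type, 38 in Pcgf1-/-, 35 in Pcgf3/5-/- and 38 in Pcgf6-/- cells. In Pcgf3/5-/- cells the heart factor gene Tbx5 and the mesoderm factor gene Mesp1 had no peak.

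Signalling genes of the Wnt, BMP, FGF and hedgehog pathways were bound at 17 of 20 in wild-type, Pcgf1-/- and Pcgf3/5-/- cells and 19 in Pcgf6-/- cells. Bmp4, a ligand of the BMP pathway, had no peak in wild-type cells, one of −log10 q 8.25 in Pcgf3/5-/- and one of 18.4 in Pcgf6-/- cells. Genes of Polycomb subunits were bound at 5 of 27 in wild-type and Pcgf3/5-/- cells, 7 in Pcgf1-/- and 8 in Pcgf6-/- cells. Bmi1 itself, encoding PCGF4, was bound in all lines but Pcgf3/5-/-, and Pcgf2 had a narrow peak of 314 bp (−log10 q 9.12) only in Pcgf6-/- cells. Pluripotency genes were bound at 1 of 17 in wild-type cells, that of Esrrb, and at 5 in Pcgf6-/- cells, where Dppa3, Klf5, Prdm14 and Zfp42 were added with −log10 q of 8.00 to 15.4. Of 20 germline genes 3 or 4 were bound in each line, and 0 of 8 control genes not linked to Polycomb were bound in any line. Genes of cyclin-dependent kinase inhibitors were bound at 2 of 6 in wild-type, Pcgf1-/- and Pcgf6-/- cells and at 3 in Pcgf3/5-/- cells. Beside these lists, 10.5%, 9.82%, 8.03% and 16.7% of all protein-coding genes were bound in wild-type, Pcgf1-/-, Pcgf3/5-/- and Pcgf6-/- cells. The germline, pluripotency, Polycomb and kinase inhibitor counts rest on few genes, so no difference from those shares is read from them.

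RNA-seq of the same genotypes, with 2 libraries each, was used to read the genes at these sites. The 2 wild-type libraries differed by less than sampling noise (chi-square per degree of freedom 0.958) while every other pair differed by more, so wild-type counts as 1 sample. Counts of genes called come from the edgeR quasi-likelihood fit with Benjamini-Hochberg adjustment, and those with the 2 wild-type libraries summed stand beside them. The libraries of the 4 lines held 4501409 to 7848161 counts. Nothing in the labels says whether the libraries of a line came from separate cultures, so p-values may measure technical spread only.

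The targeted genes were read first. Pcgf1 stood at 66.1 and 61.0 CPM (counts scaled to the library total) in the wild-type libraries and 4.81 and 3.20 in Pcgf1-/- cells, a fall of 3.90 on the log2 scale (SE 0.196, edgeR adjusted p 2.4e-08). Pcgf6 stood at 36.2 and 34.3 CPM in wild-type and at 0 in both Pcgf6-/- libraries, at least 162-fold lower against a floor of 3 counts over the group. Pcgf5 stood at 13.0 and 10.8 CPM in wild-type and 5.48 and 4.60 in Pcgf3/5-/- cells (log2 change -1.22, SE 0.225, edgeR adjusted p 0.0018). It also fell in Pcgf1-/- cells, where it was not targeted, to 5.36 and 4.12 CPM (log2 change -1.28, SE 0.226, edgeR adjusted p 0.00071), so its level does not mark the knockout. Pcgf3 stood at 16.4 and 15.5 CPM in wild-type and 11.4 and 12.9 in Pcgf3/5-/- cells, which did not pass the test (edgeR adjusted p 0.24), so RNA does not check the Pcgf3/5-/- label. Stem cell markers summed to 1174 to 1738 CPM over the libraries of the 4 lines with none of the 8 at 0. Primitive endoderm markers summed to at most 0.959 CPM in the libraries of the other 3 lines and to 46.2 and 41.2 CPM in Pcgf6-/- cells. All 5 were detected in the latter and all 5 were at 0 in wild-type cells. In Pcgf6-/- cells Gata4 held only 2 counts over its libraries (0.125 and 0.153 CPM), and Gata6 stood at 2.12 and 1.07 CPM. Trophoblast markers summed to 83.8 and 90.3 CPM in wild-type and 12.3 and 13.8 in Pcgf6-/- cells, with 39.6 and 35.2 in Pcgf1-/- and 118.6 and 107.8 in Pcgf3/5-/- cells. Mesoderm markers summed to 44.2 and 37.1 CPM in wild-type and 12.7 to 19.9 in Pcgf1-/- and Pcgf3/5-/- cells, and to 6.72 and 5.98 in Pcgf6-/- cells. Fibroblast markers summed to 220.9 and 230.1 CPM in wild-type, 134.2 and 167.3 in Pcgf1-/-, 196.5 and 214.4 in Pcgf3/5-/- and 109.3 and 103.6 in Pcgf6-/- cells, and neural markers to 66.3 to 115.9 over the 4 lines. The part of these shifts in the results was not tested. In bulk samples, fewer cells of a type and less RNA per cell cannot be told apart.

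Pcgf2 RNA was lower in all 3 knockouts, including the line with the most PCGF2 peaks. It stood at 43.0 and 49.0 CPM in wild-type, 30.2 and 28.4 in Pcgf1-/-, 33.7 and 30.9 in Pcgf3/5-/- and 33.1 and 31.6 in Pcgf6-/- cells. The log2 changes were -0.64 (SE 0.131, edgeR adjusted p 0.0020), -0.51 (SE 0.130, adjusted p 0.013) and -0.51 (SE 0.128, adjusted p 0.0047). The call in Pcgf3/5-/- cells was lost without wild-type library 2 (adjusted p 0.15) or Pcgf3/5-/- library 2 (0.095), and that in Pcgf6-/- cells without wild-type library 2 (0.071). Bmi1 rose in Pcgf6-/- cells from 16.1 and 14.2 to 29.4 and 26.4 CPM (log2 change 0.88, SE 0.166, edgeR adjusted p 0.00052).

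Genes were then grouped by their promoter as losing, keeping or gaining a PCGF2 peak relative to wild-type cells. Pcgf1-/- cells lost the peak at 426 genes, kept it at 1908 and gained it at 285. Pcgf3/5-/- cells lost it at 686, kept it at 1650 and gained it at 147. In Pcgf6-/- cells 116 genes lost it, 2217 kept it and 1500 gained it. A few wild-type genes fell in no group because their only peak in the knockout overlapped background, and of the 2342 genes bound in wild-type cells 1559 could be tested, which leaves out the most silent ones.

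Genes that lost or kept PCGF2 in Pcgf6-/- cells were raised more often than lowered, and the 2 counts were closer among genes that gained it. Over all 15464 genes tested, 27.8% were raised and 18.6% lowered in Pcgf6-/- cells. Of 99 tested genes that lost the peak, 52 were raised (52.5%) and 9 lowered (9.09%), with a median log2 change of 0.62 against 0.026 over all genes. Genes that kept it were raised in 615 of 1446 (42.5%) and lowered in 254, with a median of 0.53. Among 1147 that gained it, 346 were raised (30.2%) and 259 lowered (22.6%), with a median of 0.054. Losing, kept and gaining genes had median wild-type levels of 10.2, 2.97 and 8.57 CPM, against 28.2 over all genes. With wild-type libraries summed the counts were 47 and 9 of 100 for losing, 576 and 208 of 1532 for kept and 334 and 232 of 1184 for gaining genes, against 24.4% raised and 14.2% lowered over all genes.

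In Pcgf1-/- cells the direction differed between losing and gaining genes. Over all genes 13.9% were raised and 18.4% lowered. Of 337 tested losing genes, 90 were raised (26.7%) and 58 lowered (17.2%), and of 226 gaining genes 34 were raised (15.0%) and 59 lowered (26.1%). The medians were 0.051 and -0.10, against -0.05 over all genes, and that of the kept genes was -0.035. With the wild-type libraries summed, 73 losing genes were raised and 46 lowered, 179 kept genes were raised and 217 lowered, and 28 gaining genes were raised and 52 lowered. Single libraries moved these counts by more than 1.5 times. Raised losing genes were 58 without wild-type library 2 and 52 without Pcgf1-/- library 1. Lowered losing genes were 35 and 38 without wild-type library 1 or 2 and 25 without Pcgf1-/- library 2. Raised gaining genes were 22 and 20 without wild-type library 1 or 2 and 20 without Pcgf1-/- library 1, and lowered gaining genes were 39 without Pcgf1-/- library 2. Among all changed genes 42.9% were raised, with 42.8% under the replicate block and 43.1% with wild-type libraries summed. The share was 50.2% with RLE size factors, 49.2% with DESeq2, 50.8% with no filter and 54.2% with only the 2 groups fitted. The lean of the background towards lowered genes therefore moved with the setting.

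In Pcgf3/5-/- cells the background shares were 11.1% raised and 10.4% lowered. Of 537 losing genes, 89 were raised (16.6%) and 48 lowered (8.94%), with a median of 0.063, and of 1008 kept genes 174 were raised (17.3%) and 145 lowered (14.4%), with a median of 0. Of 112 gaining genes 17 were raised (15.2%) and 26 lowered (23.2%), with a median of -0.15. With wild-type libraries summed, 65 losing genes were raised and 30 lowered, 140 kept genes were raised and 106 lowered, and 12 gaining genes were raised and 23 lowered. Without wild-type library 1 or 2 the raised losing genes were 53 and 43 and the lowered ones 24 and 25, and the raised gaining genes were 9 and 6. Without Pcgf3/5-/- library 1 the raised losing genes were 42 and the raised gaining genes 9, and without library 2 the lowered losing genes were 22.

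**Figure D5:**
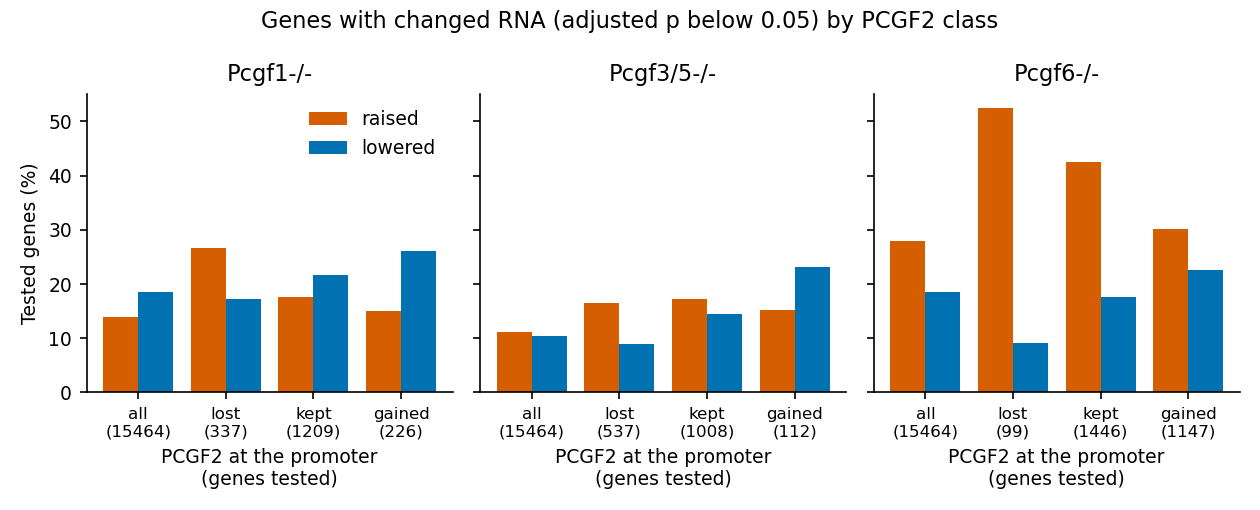
Percent of tested genes raised or lowered (y axis, edgeR adjusted p below 0.05) in each knockout line, for all genes and for genes that lost, kept or gained a promoter PCGF2 peak. In Pcgf6-/- cells 52.5% of losing genes were raised, against 27.8% of all genes.

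Genes of the strongest class members gave examples. The cargo receptor gene Golim4, whose peak was missing in Pcgf6-/- cells, stood at 6.28 and 5.20 CPM in wild-type and 21.4 and 21.0 CPM in Pcgf6-/- cells (log2 change 1.88, SE 0.207, edgeR adjusted p 4.6e-06). Among the 5 genes leading that class, Vopp1 (1.501) and Gm10190 (1.55) also rose, while Ptprd (0.32) and Vash1 (0.76) did not pass. Tmem59l, missing in Pcgf1-/- cells, rose there from 4.99 and 4.64 to 16.3 and 14.6 CPM (log2 change 1.69, SE 0.234, edgeR adjusted p 0.00011). Igsf21 of that class rose by 1.36 on the log2 scale, a call lost without wild-type library 2 (edgeR adjusted p 0.051) or Pcgf1-/- library 1 (0.061), Tlx2 (-0.86) and Gfod1 (0.60) did not pass, and Ankrd34a was too low to be tested. Cdh4, missing in Pcgf3/5-/- cells, rose there from 18.4 and 21.1 to 54.0 and 44.7 CPM (log2 change 1.32, SE 0.193, edgeR adjusted p 0.00029). Fyco1 (log2 change 0.038), Rab7l1 (-0.017) and Pafah2 (0.125), whose peaks lacked SUZ12, did not pass there. Ascl2, whose peak overlapped SUZ12, rose there (log2 change 0.68, SE 0.166, edgeR adjusted p 0.0098), a call lost without either wild-type library. Ascl2 rose as well in Pcgf6-/- cells (0.72), where its peak was kept. In each of these examples both libraries of the knockout lay above both wild-type libraries for the genes that rose.

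Genes with a site called only in a single knockout went both ways there. B3galnt1, a glycosyltransferase gene with a peak only in Pcgf1-/- cells at this site, fell there from 52.5 and 48.5 to 24.4 and 21.7 CPM (log2 change -1.12, SE 0.107, edgeR adjusted p 5.5e-06). It fell as well in Pcgf3/5-/- cells, to 20.6 and 22.1 CPM, where its promoter had gained another peak. The collagen-modifying enzyme gene Plod2 fell by 0.95 on the log2 scale in the same line. Lin28b, an inhibitor of let-7 maturation with a peak only in Pcgf3/5-/- cells at its site, fell there from 10.6 and 10.3 to 3.88 and 2.11 CPM (log2 change -1.73, SE 0.265, edgeR adjusted p 0.00044), and Socs2, a cytokine signalling inhibitor, fell by 0.84. In the same classes Zfp422 rose in Pcgf1-/- cells (log2 change 0.47, edgeR adjusted p 0.017) and Lrig3 in Pcgf3/5-/- cells (1.20, edgeR adjusted p 0.0054), calls that were lost without wild-type library 2 (0.20 and 0.066). The call of Zfp422 was also lost with wild-type libraries summed (0.055) and that of Lrig3 without Pcgf3/5-/- library 1 (0.072). Eepd1 fell in Pcgf1-/- cells (-1.05), a call lost without Pcgf1-/- library 2 (0.057), and Igf2bp3 in Pcgf3/5-/- cells (-0.62), a call lost without each of the 4 libraries in turn (0.052 to 0.085) and with wild-type libraries summed (0.057). Fzd6 (-0.34) and Pdik1l (-0.042) did not pass. Of the genes with a strong site only in Pcgf6-/- cells, Shb (-0.11), Zfhx3 (-0.30) and Gata4, at 0 in wild-type and 0.125 and 0.153 CPM in Pcgf6-/- cells, did not pass there. The piRNA factor gene Tdrkh, called in every line but wild-type, went the other way in Pcgf6-/- cells, from 7.13 and 3.23 to 137.1 and 147.5 CPM (log2 change 4.78, SE 0.199, edgeR adjusted p 4.9e-10). Its PCGF2 peak there was weak, with a −log10 q of 7.96. Other leading promoter genes of that class went both ways in Pcgf6-/- cells. BC089491 fell from 5.42 and 3.94 to 0.249 and 0.306 CPM (log2 change -3.98, SE 0.459, edgeR adjusted p 7.2e-06). D8Ertd82e rose (log2 change 1.92, SE 0.340, edgeR adjusted p 0.00032), and Plekhh2 (0.31) did not pass.

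The genes with the largest fitted changes among losing and gaining genes were near or at 0 in 1 group. In Pcgf1-/- cells Artn, a neurotrophic ligand that lost its peak, stood at 0 in wild-type and 2.30 and 2.29 CPM in the knockout, at least 10.5-fold higher, and the immediate early gene Fos, also losing, stood at 0 and 0.141 in wild-type and 3.72 and 2.97 CPM in the knockout. The lysosomal gene Dram1, losing too, went from 3.42 and 2.95 CPM to 0, at least 13.1-fold lower. Of the leading genes in Pcgf6-/- cells, Clec2l, Tacr3 and Pcdhb7 gained a peak and rose from 0 to 12.3 and 11.3, 11.5 and 11.2, and 10.8 and 9.35 CPM, at least 54.4-fold, 52.1-fold and 46.4-fold. Lonrf2 and Cpz also gained a peak there and fell to 0, at least 14.01-fold and 13.0-fold lower. In Pcgf3/5-/- cells Zfp651 lost its peak and went from 1.43 and 1.13 CPM to 0, at least 5.27-fold lower. The calls of Ppp2r2b, Mrc2, Bend6 and Slc24a2, other leading genes there, were each lost without at least one library, with edgeR adjusted p up to 0.12, 0.059, 0.14 and 0.11.

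Calls among Hox genes went mainly up in Pcgf1-/- cells and down in Pcgf6-/- cells. Of 18 Hox genes tested, 11 were raised and 1 lowered in Pcgf1-/- cells (13.9% and 18.4% of all genes), where 32 of 39 were bound, and with wild-type libraries summed 8 were raised and 1 lowered. The calls of Hoxa2, Hoxa7, Hoxb9, Hoxd10 and Hoxd13 there were lost without at least one library. Although fewer Hox genes were bound there than in wild-type cells, peaks covered more of each cluster, such as 42.6% against 31.2% of Hoxd. In Pcgf3/5-/- cells 35 were bound, as in wild-type cells, and 1 was raised and 1 lowered (11.1% and 10.4% of all genes). A link between binding and direction was not tested. Where all 39 were bound, in Pcgf6-/- cells, 0 were raised and 7 lowered (27.8% and 18.6% of all genes), also with wild-type libraries summed. The calls of Hoxc5 and Hoxd10 there were lost without at least one library, with edgeR adjusted p up to 0.23 and 0.077. Hoxa10 stood at 3.71 and 4.22 CPM in wild-type, 24.7 and 19.7 in Pcgf1-/- (log2 change 2.497, SE 0.244, edgeR adjusted p 6.4e-06) and 0.249 and 0.613 in Pcgf6-/- cells (log2 change -3.19, SE 0.482, edgeR adjusted p 8.1e-05). Its promoter held a peak in all 4 lines, and the groups do not overlap. Of the 3 Hox genes without a peak in Pcgf1-/- cells, Hoxb9 was raised there (log2 change 1.04, edgeR adjusted p 0.035), a call lost with wild-type libraries summed (0.073). Developmental transcription factors were raised at 7 and lowered at 4 of 17 tested in Pcgf6-/- cells (8 and 4 with wild-type libraries summed), where T, the mesoderm factor Brachyury, fell from 36.2 and 30.0 to 0.623 and 1.23 CPM. Of 20 germline genes 19 were raised and 1, Stag3, lowered in Pcgf6-/- cells, also with wild-type libraries summed, and 4 of 20 carried PCGF2 there. Stag3 was also the germline gene that lost its peak there, a narrow one (−log10 q 12.35, 235 bp) called only in wild-type cells. The RNA call of Stag3 did not hold without wild-type library 1 or Pcgf6-/- library 2. Germline genes were raised at 4 and lowered at 7 of 20 in Pcgf1-/- cells, and at 9 and 4 in Pcgf3/5-/- cells. The gene lists were chosen with earlier results of these data known, so these counts are not independent of those results.

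The remaining lists held calls in both directions, beside 13.9%, 11.1% and 27.8% raised and 18.4%, 10.4% and 18.6% lowered over all genes in Pcgf1-/-, Pcgf3/5-/- and Pcgf6-/- cells. In that order of lines, signalling genes were raised at 2, 2 and 3 and lowered at 4, 4 and 4 of 10 tested. With wild-type libraries summed they were raised at 2, 1 and 2 and lowered at 3, 2 and 4. Polycomb genes were raised at 4, 2 and 6 and lowered at 7, 8 and 9 of 27 tested. With wild-type libraries summed they were raised at 2, 1 and 4 and lowered at 6, 6 and 8. The lowered Polycomb counts include targeted genes, namely Pcgf1 in Pcgf1-/-, Pcgf5 in Pcgf3/5-/- and Pcgf6 in Pcgf6-/- cells. Pluripotency genes were raised at 3, 1 and 3 and lowered at 3, 2 and 4 of 17, and with wild-type libraries summed raised at 1, 0 and 2 and lowered at 2, 2 and 4. Several of these counts lie near the shares over all genes or move with the summed libraries, so no direction is read from them. Bmp4, which had a promoter peak in Pcgf6-/- cells and none in wild-type, stood at 165.9 and 161.5 CPM in wild-type and 29.5 and 23.6 CPM in Pcgf6-/- cells (log2 change -2.62, SE 0.123, edgeR adjusted p 1.2e-09).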

How the data were processed

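ChIP-seq peak lists and RNA-seq counts came from mouse E14 embryonic stem cells and knockout lines. Per the submitters' processing notes, the tools were bcl2fastq 2, TopHat2 2.1.1, Bowtie 1.2.2, Picard 1.62, HTSeq 0.7.2, DESeq2 3.7 and MACS2 2.1.1, with no roles given, and the build was mm9. Each deposited peak carries the authors' fold enrichment, −log10 p and −log10 q, and lists start at a −log10 p of 10. The deposited counts per gene are raw whole numbers.

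Peaks were taken as shared at an overlap of 1 bp, after removing those overlapping the Pcgf2/4-/- list. Promoters are 2.5 kb either side of starts in GENCODE M1. Counts were tested with edgeR 4.0.16 (quasi-likelihood, TMM, low-count filter, 14 libraries in 7 groups, Benjamini-Hochberg threshold 0.05), checked on simulated data, with 15464 of 23377 genes tested. DESeq2 1.42.0 was an alternative. Of 22225 protein-coding symbols, 19446 matched the count table. Genes named are the 5 strongest promoter peaks per class, the 5 widest shared peaks, the 3 largest changes per direction among losing or gaining genes, Pcgf genes and members of fixed lists. The members and lists were chosen with earlier results of these data known. Tests ran under R 4.3.3, and overlaps under Python 3.11.15. Some items that these rules name are not reported here.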

Additional observations from a re-analysis of the deposited data

How the results depend on the processing

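Without background removal, 65.6% of wild-type peaks were called in Pcgf3/5-/- cells, and in wild-type, Pcgf1-/-, Pcgf3/5-/- and Pcgf6-/- cells in that order SUZ12 shares were 81.6%, 80.4%, 89.5% and 62.2% and H3K27me3 shares 57.2%, 76.4%, 84.4% and 45.2%. With PCGF2 peaks of −log10 q of at least 10, 81.6% of wild-type peaks were called in Pcgf1-/- cells, peaks only in wild-type and only in Pcgf3/5-/- cells numbered 43 and 15, and in the same order of lines promoter shares were 78.6%, 78.8%, 79.6% and 70.1%, SUZ12 shares 95.3%, 95.8%, 99.7% and 79.0%, and H3K27me3 shares 71.1%, 91.5%, 96.0% and 56.5%. With lists of equal length, 83.4%, 80.8% and 87.8% of wild-type peaks were called in Pcgf1-/-, Pcgf3/5-/- and Pcgf6-/- cells, and peaks only in wild-type, Pcgf3/5-/- and Pcgf6-/- cells numbered 125, 149 and 588. In wild-type, Pcgf1-/- and Pcgf6-/- cells promoter shares were then 78.8%, 78.9% and 78.2%, SUZ12 shares 95.6%, 95.9% and 97.5%, and H3K27me3 shares 73.2%, 91.9% and 76.4%. With 50% of the peak covered, 77.7% and 63.1% of wild-type peaks were called in Pcgf1-/- and Pcgf3/5-/- cells, SUZ12 lay at 64.5% of Pcgf6-/- peaks, and H3K27me3 shares were 52.8%, 86.4%, 90.6% and 27.9% over the 4 lines. Promoter shares over the 4 lines were 68.8%, 70.4%, 69.9% and 61.1% with windows of 1 kb and 83.1%, 83.1%, 84.3% and 72.9% with windows of 5 kb. With stricter SUZ12 and H3K27me3 peaks, SUZ12 shares were 91.1%, 98.7% and 62.4% in Pcgf1-/-, Pcgf3/5-/- and Pcgf6-/- cells and H3K27me3 shares 38.3%, 85.4%, 91.0% and 27.1% over the 4 lines. The cause of these shifts was not tested, beyond the shorter lists that the settings make.

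For RNA, RLE size factors, DESeq2, no filter and the replicate block each left all 12 counts of losing and gaining genes within 1.5 times. With the replicate block 83 losing genes were raised and 54 lowered in Pcgf1-/- cells, and the genes changed in Pcgf1-/-, Pcgf3/5-/- and Pcgf6-/- cells were 4517, 2921 and 6866. The replicate numbers do not pair the libraries, since the correlations of their deviations were 0.060, 0.032 and 0.033. With only the 2 groups fitted, 33 losing and 38 gaining genes were lowered in Pcgf1-/- cells. With stricter PCGF2 peaks, 58 losing genes were raised and 30 lowered in Pcgf1-/- cells and 12 gaining genes raised and 31 lowered, 6 gaining genes were raised and 9 lowered in Pcgf3/5-/- cells, and 33 losing genes were raised in Pcgf6-/- cells. With wild-type libraries summed, an alternative chosen after seeing the data, 30 losing genes were lowered in Pcgf3/5-/- cells. Over the fits that left out a library, which assume that the lone sample varies like the other groups, all changed genes in Pcgf3/5-/- cells fell from 3333 to 1712 and 1602 without wild-type library 1 or 2. The counts over these fits were, for losing genes in Pcgf1-/- cells, 52 to 95 raised and 25 to 42 lowered, for gaining genes there 20 to 35 raised and 39 to 48 lowered, for losing genes in Pcgf3/5-/- cells 42 to 79 raised and 22 to 33 lowered, and for gaining genes there 6 to 12 raised.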
